A study of Mus musculus with 20 samples.

Results

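The 9 genes described here encode subunits of the potassium and calcium channels that set the tone of vascular smooth muscle. They were taken as a list of symbols, drawn up with earlier results of these data known, from the 43422 Ensembl genes measured in the abdominal aorta of 20 mice, and each of the 9 was present in every library. The mice were of strain C57BL/6 and 6 months old by the labels, whereas the study's methods name the substrain C57Bl/6NCrl and give a younger age at the start of infusion. They were either wild type (WT) or deficient in lysyl hydroxylase 1 (LH1), the collagen-modifying enzyme encoded by Plod1 (Plod1-/-). Osmotic pumps delivered saline or angiotensin II (Ang II, 1000 ng/kg/min) for 14 days, so that 4 groups of 5 mice resulted, WT and Plod1-/- mice under either infusion. The deletion is carried by every cell of these mice, and RNA was taken from the whole vessel segment, so fewer smooth muscle cells and less channel RNA per smooth muscle cell cannot be told apart. Values are FPKM, which scale the fragments of a gene by its transcript length and by the size of the library. Their sum ran from 344207 to 437790 over the 20 mice, which limits comparison between mice. Comparison between genes is only rough: of 2 smooth muscle markers, Tagln had 9.35 and Acta2 14043 FPKM in saline-treated WT mice. Orders and ratios of different genes below are descriptions with that limit.

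Arterial smooth muscle contracts when calcium enters through voltage-gated L-type channels, and potassium channels oppose this by holding the membrane potential negative. Large-conductance calcium-activated (BK) channels are opened by calcium released locally from ryanodine receptors of the sarcoplasmic reticulum, ATP-sensitive (KATP) channels follow the metabolic state of the cell, and Kv1.5 opens on depolarization. Kcnma1 encodes the pore of the BK channel and Kcnmb1 its β1 subunit, which raises calcium sensitivity and marks smooth muscle. Kcnj8 encodes the Kir6.1 pore of the vascular KATP channel and Abcc9 its sulfonylurea receptor SUR2, whereas Kcna5 encodes Kv1.5. Cacna1c and Cacna1d encode the L-type pores Cav1.2 and Cav1.3, Cacnb2 an auxiliary β subunit that brings the pore to the membrane, and Ryr2 a ryanodine receptor.

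On mouse build GRCm38, 4 of the 9 genes lie on chromosome 6, all on the minus strand: Kcnj8 (ENSMUSG00000030247, 142564837 to 142571614), Abcc9 (ENSMUSG00000030249, 142587862 to 142702315), Kcna5 (ENSMUSG00000045534, 126532551 to 126535412) and Cacna1c (ENSMUSG00000051331, 118587240 to 119196418). The KATP partners Kcnj8 and Abcc9 are neighbours, with 16247 bases between them. Kcnma1 (ENSMUSG00000063142) and Cacna1d (ENSMUSG00000015968) are on the minus strand of chromosome 14, from 23289431 to 24014491 and from 30039939 to 30491455. Kcnmb1 (ENSMUSG00000020155) is on the plus strand of chromosome 11, from 33963013 to 33973641, and Cacnb2 (ENSMUSG00000057914) on the plus strand of chromosome 2, from 14603088 to 14987908. Ryr2 (ENSMUSG00000021313) is on the minus strand of chromosome 13, from 11553102 to 12106945. The library kit does not mark strand, and 589 exonic bases of Cacna1d overlap Chdh, a gene on the opposite strand with up to 5.27 FPKM here, so Cacna1d values are uncertain. The antisense genes that overlap Abcc9 and Cacnb2 and were present in the data reached at most 0.227 FPKM.

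RefSeq promoters (GRCm38.p6) were matched for 9 of 9 genes, with 13 start sites in all, and the 250 bases before each start were read. The windows of the 5 genes on which the comparisons turn are printed 5′ to 3′ on the strand of the gene, so that the BK, KATP, Kv1.5 and ryanodine receptor promoters can be set side by side. They lie at chr11:33962763-33963012 (plus, Kcnmb1), chr6:142571615-142571864 (minus, Kcnj8), chr6:142702275-142702524 (minus, Abcc9), chr6:126535556-126535805 (minus, Kcna5) and chr13:12106946-12107195 (minus, Ryr2). Capitals mark E-boxes (CANNTG, the letters bound by basic helix-loop-helix factors) and, in Kcnj8, a CArG box with 1 of its outer letters changed.
Kcnmb1: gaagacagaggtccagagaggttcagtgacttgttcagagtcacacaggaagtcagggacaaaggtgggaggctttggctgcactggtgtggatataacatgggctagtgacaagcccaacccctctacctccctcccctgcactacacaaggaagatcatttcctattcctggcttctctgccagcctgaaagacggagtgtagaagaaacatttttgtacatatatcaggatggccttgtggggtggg
Kcnj8: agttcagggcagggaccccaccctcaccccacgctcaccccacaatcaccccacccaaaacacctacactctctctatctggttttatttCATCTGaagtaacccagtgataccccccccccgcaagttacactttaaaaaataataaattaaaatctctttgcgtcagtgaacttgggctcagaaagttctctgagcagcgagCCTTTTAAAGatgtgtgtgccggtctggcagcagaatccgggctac
Abcc9: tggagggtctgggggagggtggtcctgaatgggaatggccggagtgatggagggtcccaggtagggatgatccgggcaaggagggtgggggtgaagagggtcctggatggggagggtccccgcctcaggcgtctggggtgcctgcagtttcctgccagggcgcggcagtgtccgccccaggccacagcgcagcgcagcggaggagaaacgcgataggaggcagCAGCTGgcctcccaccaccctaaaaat
Kcna5: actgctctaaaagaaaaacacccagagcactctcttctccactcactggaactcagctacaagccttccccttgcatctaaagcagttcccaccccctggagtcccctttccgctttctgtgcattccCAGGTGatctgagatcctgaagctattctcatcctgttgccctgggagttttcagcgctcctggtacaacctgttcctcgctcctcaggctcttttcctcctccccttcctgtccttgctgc
Ryr2: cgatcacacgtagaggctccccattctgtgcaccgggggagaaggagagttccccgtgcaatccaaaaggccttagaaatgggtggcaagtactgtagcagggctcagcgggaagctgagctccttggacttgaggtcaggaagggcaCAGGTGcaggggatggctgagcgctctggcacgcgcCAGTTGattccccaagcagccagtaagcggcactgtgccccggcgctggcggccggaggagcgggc
The CArG box, the letters read by serum response factor and myocardin in many smooth muscle genes, was searched on both strands and was found in 0 of the 13 windows and in 1.47% of the 32851 mouse promoters. With 1 outer letter left free, it was found in 1 of the 13 windows, as CCTTTTAAAG beginning at base -46 from the Kcnj8 start, and in 12.4% of all promoters. An E-box was found in 10 of the 13 windows and in 66.2% of all promoters. The Kcnmb1 window held neither motif, and Abcc9 held CAGCTG at base -27. No E-box overlapped the Kcnj8 match. A match is a run of letters and says nothing of binding, nor does its absence from so short a window.

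The genotype labels were checked on Plod1, which had 22.8 to 29.7 FPKM in the 10 WT mice and at most 0.0414 FPKM in the 10 Plod1-/- mice. Relative depth, estimated from the lowest FPKM steps, ran from 0.903 to 1.09. Defining smooth muscle markers were abundant, their 13 genes summing to 19374 to 27727 FPKM in saline-treated WT mice. Ang II-treated WT replicate 4 stood apart from its group, with 23219 FPKM for these markers against 7900 to 14545 in the other 4 mice and 462 FPKM for 5 adipocyte markers against 2076 to 2882. Xist RNA was at 15.1 FPKM in Plod1-/- replicate 5 of the saline group, at 7.93 FPKM in Plod1-/- replicate 1 of the Ang II group, and at most 0.0328 FPKM in the other 18 libraries, although the study describes male mice. Results that rest on these libraries are given below with and without them. The limma fits used log2(FPKM + 1), on which changes of genes near 1 FPKM look smaller than they are. Genes were tested where at least 5 of the mice in a fit had 1 FPKM or more. A gene is said to rise or fall where its Benjamini-Hochberg adjusted p over all tested genes was below 0.05, and is called a differentially expressed gene (DEG) where the log2 change also exceeded 1 in size.

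In saline-treated WT aorta, Kcnmb1 stood highest of the 9 genes at 72.6 ± 5.09 FPKM (SD, n = 5), followed by the KATP pair, Abcc9 at 26.6 ± 2.80 FPKM and Kcnj8 at 26.6 ± 6.89 FPKM. Kcna5 had 4.13 ± 1.3, Cacna1c 3.48 ± 0.574, Ryr2 2.32 ± 0.830, Kcnma1 1.89 ± 0.357, Cacnb2 1.54 ± 0.125 and Cacna1d 1.23 ± 0.332 FPKM. Kcnmb1 did not overlap Abcc9, and Kcnj8 did not overlap Kcna5, whereas every other pair of neighbours in this order had overlapping values among the 5 mice. The BK β1 subunit RNA was 39.2 ± 5.25 times that of its pore per length (SD, n = 5), and SUR2 RNA 1.05 ± 0.247 times that of Kir6.1.

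**Figure D1:**
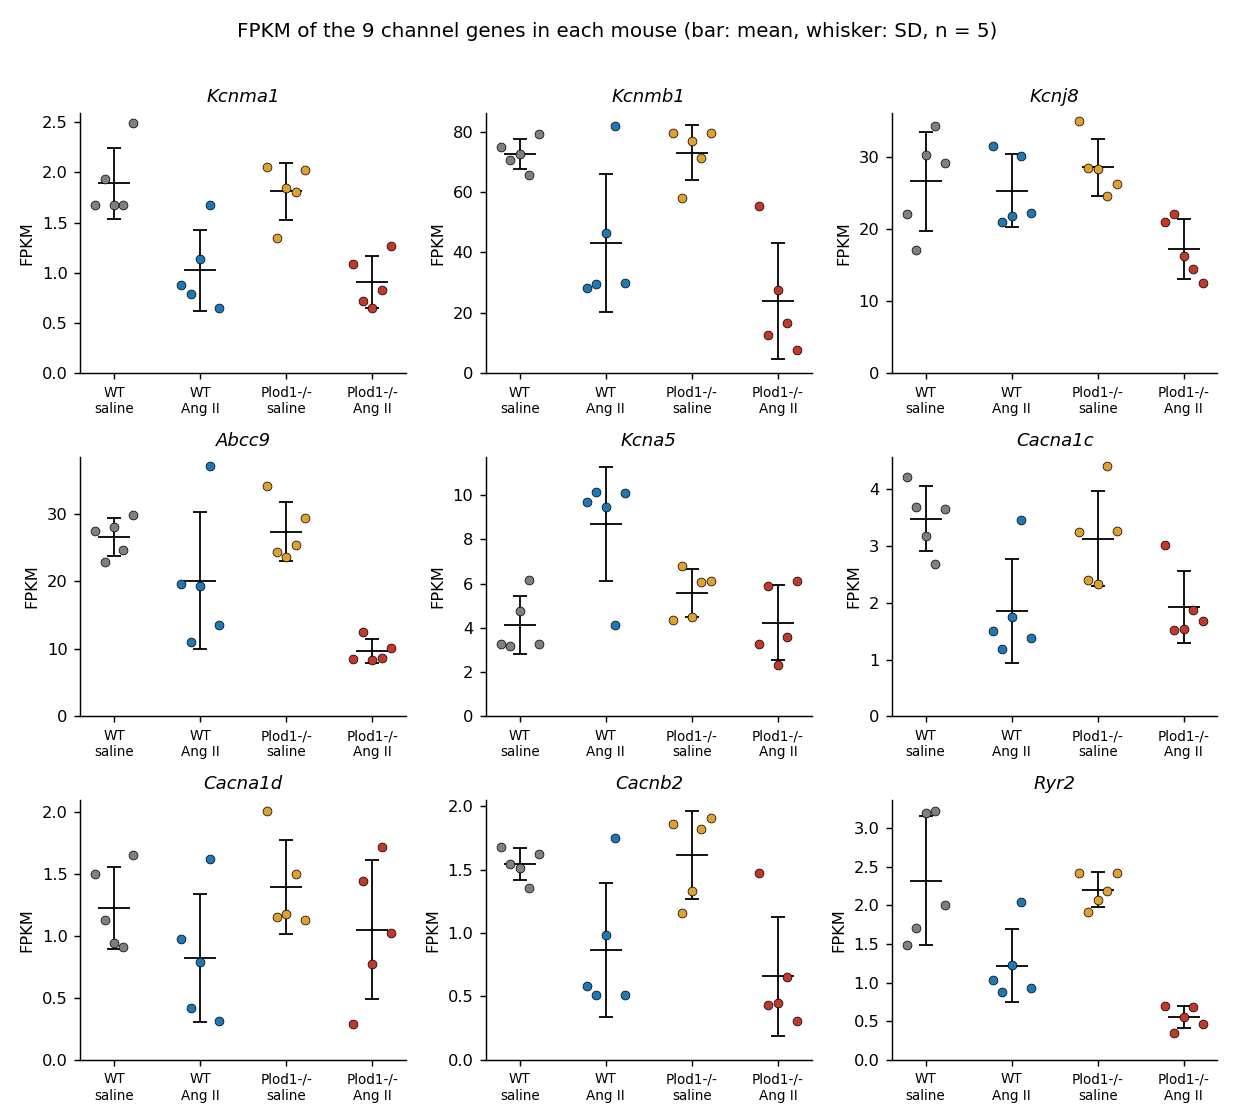
FPKM (y axis) of the 9 channel genes in each of the 20 mice, by group (x axis), with the mean and SD of 5 mice. Abcc9 and Ryr2 of Ang II-treated Plod1-/- mice lie below every saline-treated mouse, Kcna5 is high in 4 of 5 Ang II-treated WT mice, and replicate 4 of that group lies near the saline-treated mice for most genes.

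The abundant β1 subunit of the BK channel fell in both genotypes. In Plod1-/- mice its mean was 3.05-fold lower and that of the pore 1.99-fold. Their log2 changes were -1.87 and -0.56, on a scale that compresses the pore near 1 FPKM. The within-mouse ratio of β1 to pore did not pass between these groups (two-sided exact permutation, adjusted p = 0.15873). Kcnmb1 was at 79.6, 57.9, 77, 71.1 and 79.7 FPKM in saline-treated Plod1-/- replicates 1 to 5 and at 55.4, 12.6, 27.7, 16.5 and 7.52 FPKM in the Ang II-treated ones. The highest Ang II-treated mouse, replicate 1, lay just below the lowest saline-treated mouse, so the groups did not overlap while the Ang II-treated mice spread widely. The mean was 3.05-fold lower, with a log2 change of -1.87 (SE 0.42, limma adjusted p = 0.004697). Kcnmb1 was thereby 1 of 3 DEGs among the 9 genes in this comparison, all lower, where 5.51% of 12333 genes tested were DEGs with lower expression. In WT mice it was at 74.9, 70.7, 72.5, 65.6 and 79.4 FPKM under saline and at 28.1, 29.6, 46.5, 81.7 and 29.7 FPKM under Ang II. Replicate 4, at 81.7 FPKM, was the highest of all 20 mice, and the other 4 lay below every saline-treated mouse. The log2 change of -0.86 (SE 0.26, limma adjusted p = 0.02396) became -1.12 without replicate 4. The WT mean was 1.68-fold lower, beside 1.84-fold for the pore Kcnma1. The fall was lost without Ang II-treated WT replicate 2 or 5 (adjusted p 0.06322 to 0.06377).

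The BK pore RNA fell by similar amounts in both genotypes. Kcnma1 was at 1.67, 1.93, 1.67, 1.68 and 2.49 FPKM in saline-treated and at 0.880, 0.787, 1.13, 1.67 and 0.653 FPKM in Ang II-treated WT mice. The Plod1-/- mice had 2.06, 1.34, 1.84, 1.81 and 2.02 FPKM under saline and 1.09, 0.720, 0.651, 0.832 and 1.27 FPKM under Ang II. The Plod1-/- groups did not overlap, and in WT mice only replicate 4 reached the saline-treated values. The log2 change was -0.53 in WT (SE 0.14, limma adjusted p = 0.01707) and -0.56 in Plod1-/- mice (SE 0.12, limma adjusted p = 0.003026). The means were 1.84-fold and 1.99-fold lower, below the size that a DEG needs on the log2(FPKM + 1) scale.

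Both KATP genes fell in Plod1-/- mice. Abcc9 was at 34.1, 24.3, 23.7, 25.4 and 29.4 FPKM in saline-treated and at 8.47, 12.5, 8.38, 8.70 and 10.1 FPKM in Ang II-treated Plod1-/- mice. The highest Ang II-treated value was well below the lowest saline-treated one. The mean was 2.84-fold lower, with a log2 change of -1.42 (SE 0.14, limma adjusted p = 5.346e-05). In this respect Abcc9 differed from Kcnmb1: replicate 1 of the Ang II-treated group, which kept 55.4 FPKM of Kcnmb1, was with 8.47 FPKM among the lowest for Abcc9. Kcnj8 was at 34.9, 28.5, 28.4, 24.5 and 26.3 FPKM under saline and at 20.9, 22.1, 16.2, 14.4 and 12.5 FPKM under Ang II. These groups did not overlap either, and the log2 change was -0.72 (SE 0.16, limma adjusted p = 0.004776).

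In WT mice neither KATP gene passed the test. Abcc9 was at 27.5, 22.9, 28.1, 24.7 and 29.9 FPKM under saline and at 19.6, 11, 19.4, 37.1 and 13.6 FPKM under Ang II. Replicate 4 was again the highest, and the other 4 mice lay below the saline-treated mice. The log2 change was -0.50 (95% interval -1.06 to 0.06, limma adjusted p = 0.1364) with all mice and -0.74 (limma adjusted p = 0.004282) without replicate 4. Kcnj8 was at 22.1, 17.1, 30.3, 34.3 and 29.1 FPKM under saline and at 31.5, 20.9, 21.7, 30.1 and 22.3 FPKM under Ang II, with full overlap. Its log2 change was -0.05 (95% interval -0.47 to 0.37, limma adjusted p = 0.8489).

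Kcna5 was the only one of the 9 genes that rose in either genotype. In WT mice it was at 3.28, 3.18, 4.75, 6.15 and 3.29 FPKM under saline and at 9.70, 10.2, 9.45, 4.12 and 10.1 FPKM under Ang II. All Ang II-treated mice except replicate 4 lay above every saline-treated mouse. The mean was 2.11-fold higher, with a log2 change of 0.90 (SE 0.24, limma adjusted p = 0.0149), and of 1.11 (limma adjusted p = 0.0003556) without replicate 4. In Plod1-/- mice Kcna5 was at 4.38, 6.80, 4.48, 6.05 and 6.1 FPKM under saline and at 3.27, 5.89, 2.30, 3.59 and 6.13 FPKM under Ang II. These groups overlapped, and the log2 change was -0.37 (95% interval -0.85 to 0.11, limma adjusted p = 0.1906).

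Markers of fat were also higher under Ang II in WT mice. The saline-treated WT mice all had sums below those of the Ang II-treated ones, so their order does not speak for the higher range. Among them replicate 4 had the lowest adipocyte sum, 13.5 FPKM, with the highest Kcna5, 6.15 FPKM. Replicate 5 had the highest sum, 276 FPKM, with Kcna5 at 3.29 FPKM. The 5 adipocyte markers summed to 13.5 to 276 FPKM in saline-treated WT mice and to 462 to 2882 FPKM in Ang II-treated ones, and 4 of the 4 tested rose as DEGs. In the 4 Ang II-treated WT mice with Kcna5 near 10 FPKM the sum was 2076 to 2882 FPKM, and in replicate 4, with 4.12 FPKM of Kcna5, it was 462 FPKM. Mitochondrial genes took 20.8% to 29.1% of the FPKM sum in those 4 mice and 14.6% in replicate 4. The sum joins markers that did not move alike. Mean Ucp1 was 50.7 FPKM under saline and 1192 FPKM under Ang II in WT mice. In Plod1-/- mice it was 187 and 94.8 FPKM, with at most 165 FPKM under Ang II. Mean Adipoq was 20.9 and 274 FPKM in the WT groups and 47.0 and 271 FPKM in the Plod1-/- groups. In Plod1-/- mice Ang II-treated replicate 2 had an adipocyte sum of 1742 FPKM with Kcna5 at 5.89 FPKM, and saline-treated replicate 2 had 1006 FPKM with 6.80 FPKM. Saline-treated Plod1-/- replicates 4 and 5 had low sums, 49.0 and 53.6 FPKM, with Kcna5 at 6.05 and 6.1 FPKM. The 5 skeletal muscle markers summed to 0.685 to 190.3 FPKM in Ang II-treated WT mice, with Cacna1s and Ttn under 1 FPKM in every one of them. The part of fat or muscle in the Kcna5 result was not tested.

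The L-type pore Cav1.2 and its β subunit fell in both genotypes. Cacna1c was at 4.21, 3.69, 3.17, 2.69 and 3.65 FPKM in saline-treated and at 1.51, 1.19, 1.75, 3.46 and 1.39 FPKM in Ang II-treated WT mice. Replicate 4 lay within the saline-treated range and the other 4 mice below it. The log2 change was -0.69 (SE 0.18, limma adjusted p = 0.01611). In Plod1-/- mice Cacna1c was at 3.24, 2.41, 2.34, 4.40 and 3.26 FPKM under saline and at 3.02, 1.52, 1.54, 1.87 and 1.69 FPKM under Ang II, where replicate 1 was the highest. The log2 change was -0.50 (SE 0.17, limma adjusted p = 0.03467). This fall in Plod1-/- mice was lost in 7 of 10 fits that left out 1 mouse (adjusted p 0.06434 to 0.08014), those without saline-treated replicate 1, 4 or 5 or Ang II-treated replicate 2, 3, 4 or 5.

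Cacnb2 was at 1.68, 1.55, 1.52, 1.35 and 1.62 FPKM in saline-treated and at 0.582, 0.512, 0.987, 1.75 and 0.508 FPKM in Ang II-treated WT mice. It was at 1.86, 1.16, 1.33, 1.82 and 1.91 FPKM in saline-treated and at 1.47, 0.429, 0.444, 0.651 and 0.306 FPKM in Ang II-treated Plod1-/- mice. A single mouse in each Ang II-treated group was high, WT replicate 4 above and Plod1-/- replicate 1 within the saline-treated range, and all others lay below it. The log2 change was -0.49 in WT (SE 0.16, limma adjusted p = 0.036) and -0.68 in Plod1-/- mice (SE 0.17, limma adjusted p = 0.00917). In WT mice the fall was lost in 9 of 10 fits that left out 1 mouse (adjusted p 0.05341 to 0.09042) and was kept only without Ang II-treated replicate 4. Cacna1d, the second L-type pore, ranged from 0.287 to 2.01 FPKM over the 20 mice and its groups overlapped in every comparison. Its log2 change in Plod1-/- mice was -0.26 (95% interval -0.69 to 0.18, limma adjusted p = 0.3113). In WT mice it was below the filter on low values, and the difference was -0.32 (two-sided exact permutation p = 0.14286, 0.35714 adjusted over 5 such tests).

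Ryr2 had the largest fold change of the 9 genes in Plod1-/- mice. It was at 2.43, 1.91, 2.08, 2.19 and 2.43 FPKM under saline and at 0.697, 0.350, 0.559, 0.680 and 0.469 FPKM under Ang II. The groups did not overlap and each was narrow. The mean was 4.00-fold lower, with a log2 change of -1.05 (SE 0.09, limma adjusted p = 3.905e-05). None of the Ang II-treated Plod1-/- mice reached 1 FPKM, so Ryr2 passed the filter only through the saline-treated mice. With no filter on low values the adjusted p was 0.0002379. With any 1 of the 5 saline-treated mice left out Ryr2 was below the filter and could not be fitted, which left 2 DEGs. In WT mice Ryr2 was at 1.49, 1.71, 3.19, 3.22 and 2.0 FPKM under saline and at 1.03, 0.880, 1.22, 2.04 and 0.928 FPKM under Ang II. Only replicate 4 reached the saline-treated values, and the log2 change was -0.57 (SE 0.19, limma adjusted p = 0.03411). This WT fall was lost in 6 of 10 fits that left out 1 mouse (adjusted p 0.05919 to 0.08337), those without saline-treated replicate 3 or 4 or Ang II-treated replicate 1, 2, 3 or 5.

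Counted over the family, Kcnma1, Kcnmb1, Kcnj8, Abcc9, Cacna1c, Cacnb2 and Ryr2 fell in Plod1-/- mice under Ang II and 0 rose, where 20.1% of all genes tested fell. Both groups were fully separated for 5 of the 9, all lower, where 15% of genes tested were lower without overlap. The 3 DEGs were Kcnmb1, Abcc9 and Ryr2. In WT mice 5 of the 8 genes tested fell and Kcna5 rose, where 21.5% of 11994 genes fell and 16.5% rose. None of the 9 was a DEG there by limma, although 6 had an unadjusted p under 0.05, and 8.66% of genes tested were DEGs. No member separated the WT groups, where 17.3% of genes did. The median log2 change of the tested members was -0.68 in Plod1-/- and -0.51 in WT mice, beside 0.05 and -0.14 over all genes tested. With no filter on low values, Kcna5 alone of these 6 passed in WT mice (limma adjusted p 0.0503 to 0.09832 for the other 5), and Cacna1c no longer passed in Plod1-/- mice (0.08709). With gene-wise variances 3 passed in WT mice, Kcnma1, Cacna1c and Kcna5, and 0 between the Ang II-treated genotypes, and Cacna1c was again lost in Plod1-/- mice. Without Ang II-treated WT replicate 4, 7 of the 8 passed in WT mice and 2, Kcnmb1 and Kcna5, were DEGs. The counts over all genes grew as well, from 4560 to 6561 passing and from 1039 to 1403 DEGs. Without both libraries with Xist RNA, 5 of 7 tested members fell in Plod1-/- mice, and Ryr2 and Cacnb2 were then below the filter.

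**Figure D2:**
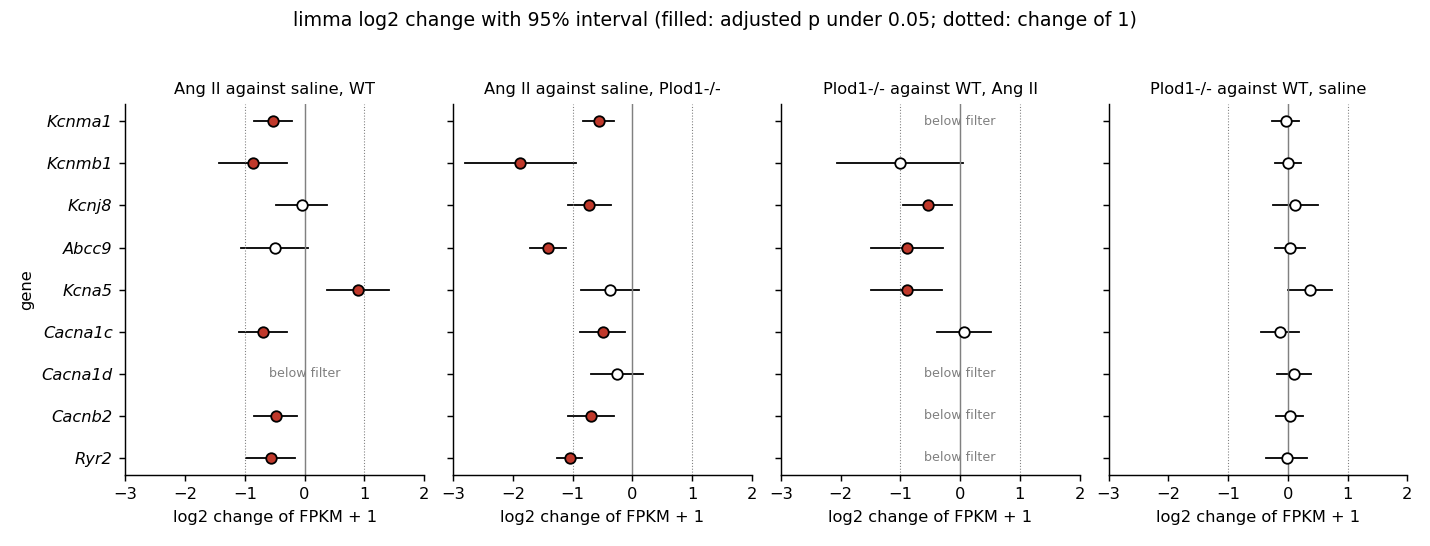
limma log2 change of FPKM + 1 (x axis) with its 95% interval for the 9 genes (y axis) in 4 comparisons. Filled points have an adjusted p below 0.05: in Plod1-/- mice Abcc9 lies at -1.42 and Ryr2 at -1.05 with narrow intervals, Kcna5 lies at 0.90 in WT mice, and the saline-treated genotypes lie near 0.

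Contractile smooth muscle markers fell beside the channel genes. Of the 13 markers, 11 fell and 10 were DEGs in Plod1-/- mice, where their sum was 20784 to 29001 FPKM under saline and 3316 to 21673 FPKM under Ang II. In WT mice 9 of the 13 fell and 4 were DEGs. Ang II-treated Plod1-/- replicate 1, the mouse with 55.4 FPKM of Kcnmb1, had the sum of 21673 FPKM, and the other 4 had at most 8402 FPKM. Of the other cell types, 5 of 5 macrophage markers rose as DEGs in Plod1-/- mice, with a sum of 49.8 to 197 FPKM under saline and 581 to 3559 FPKM under Ang II. The 5 pericyte markers, a cell type that also uses KATP channels, summed to 430 to 904 FPKM and 162 to 363 FPKM in the same groups, and 3 of 5 fell, while Higd1b rose (log2 change 1.32, limma adjusted p = 0.002509). The 5 fibroblast markers summed to 310 to 520 FPKM under saline and to 627 to 3579 FPKM under Ang II in Plod1-/- mice, without overlap, although only Col1a1, a collagen gene, passed the test (log2 change 3.27). Of the 5 endothelial markers 2 rose as DEGs, and their sums overlapped, at 50.7 to 151 FPKM and 37.4 to 157 FPKM. Nerve and Schwann cell markers summed to at most 7.04 FPKM under saline and to 13.5 to 277 FPKM under Ang II in Plod1-/- mice. Ryr2 is a gene of heart muscle as well, and the 5 cardiac markers summed to 9.80 to 194 FPKM in saline-treated and 2.87 to 43.4 FPKM in Ang II-treated Plod1-/- mice, and to 8.21 to 79.6 FPKM and 6.61 to 14.8 FPKM in the WT groups. Of the 3 that could be tested in Plod1-/- mice, Tnnt2 fell as a DEG (log2 change -1.41). The sum of 194 FPKM was that of saline-treated Plod1-/- replicate 1, and the other 4 mice of that group, with Ryr2 at 1.91 to 2.43 FPKM, had at most 17.4 FPKM. Nppa reached 53.5 FPKM in 1 saline-treated Plod1-/- mouse and was under 1 FPKM in the other 19 mice. The part of these cells in the channel results was not tested.

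**Figure D3:**
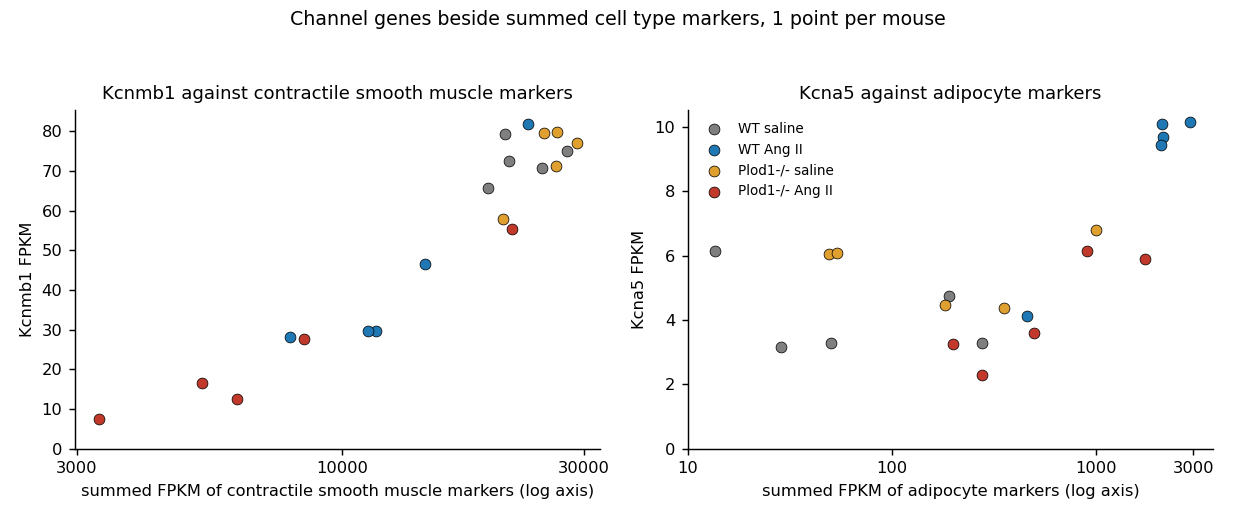
Left, Kcnmb1 FPKM (y axis) against the summed FPKM of 13 contractile smooth muscle markers (x axis, log scale), and right, Kcna5 FPKM against the summed FPKM of 5 adipocyte markers, with 1 point per mouse coloured by group. Ang II-treated Plod1-/- replicate 1 (21673 FPKM of markers, 55.4 FPKM of Kcnmb1) lies within the marker range of the saline-treated mice and just below them in Kcnmb1. The 4 Ang II-treated WT mice with Kcna5 near 10 FPKM have the highest adipocyte sums.

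Between the genotypes under Ang II, both KATP genes and Kcna5 were lower in Plod1-/- mice. Abcc9 had a log2 difference of -0.89 (SE 0.27, limma adjusted p = 0.03039), with means of 9.65 FPKM in Plod1-/- and 20.1 FPKM in WT mice. The Plod1-/- value of replicate 2, 12.5 FPKM, overlapped only the lowest WT mouse at 11 FPKM. Kcna5 had a log2 difference of -0.90 (SE 0.27, limma adjusted p = 0.03011), with means of 4.24 and 8.70 FPKM, and Kcnj8 one of -0.54 (SE 0.19, limma adjusted p = 0.04643), with means of 17.2 and 25.3 FPKM. These 3 genes were among 5 tested, where 10.4% of 12356 genes were lower by the same test, and 0 were DEGs, where 11.1% of genes were and 3 members had an unadjusted p under 0.05. Kcnmb1 and Cacna1c did not pass, with log2 differences of -1.01 (95% interval -2.06 to 0.04, limma adjusted p = 0.1281) and 0.06 (95% interval -0.39 to 0.51, limma adjusted p = 0.8372). The other 4 genes were below the filter. Of these, Ryr2 differed by -0.50 on the log2(FPKM + 1) scale, with no overlap between 0.350 to 0.697 FPKM in Plod1-/- and 0.880 to 2.04 FPKM in WT mice (two-sided exact permutation p = 0.00794, the smallest that 5 against 5 mice can give, 0.03968 adjusted over 5 tests). In the limma fit over all genes with no filter this difference did not pass (adjusted p = 0.0833). Kcnma1, Cacna1d and Cacnb2 gave exact permutation p-values of 0.46032 to 0.63492. Over the 9 genes, only Ryr2 separated the groups, with lower values, and it was not among the genes tested. Of the 5 members tested, 0 separated the groups, where 4.62% of genes tested were lower without overlap.

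These genotype differences lay close to the threshold, and leaving out any of several mice took the adjusted p above 0.05. With 1 mouse left out the log2 differences stayed negative, from -1.061 to -0.644 for Abcc9, -1.113 to -0.745 for Kcna5 and -0.634 to -0.44 for Kcnj8. Abcc9 was lost in 5 of 10 fits that left out 1 mouse (adjusted p 0.05175 to 0.06993), those without WT replicate 1 or 3 or Plod1-/- replicate 3, 4 or 5. Kcna5 was lost in 6 of 10 (adjusted p 0.05584 to 0.0737), those without WT replicate 1, 2, 3 or 5 or Plod1-/- replicate 3 or 4. Kcnj8 was lost in 8 of 10 (adjusted p 0.05733 to 0.1116), and was kept only without Plod1-/- replicate 1 or 2. With no filter on low values none of the 3 passed (adjusted p 0.08142 to 0.1065). Without Plod1-/- replicate 1, a library with Xist RNA, Kcnmb1 had a log2 difference of -1.38 (limma adjusted p = 0.02082) and was a DEG.

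Under saline 0 of the 9 genes passed the limma test between genotypes, where 6.55% of 11999 genes tested had an adjusted p below 0.05. The log2 difference of Plod1-/- against WT mice lay between -0.13 for Cacna1c and 0.37 for Kcna5, and the groups overlapped for 9 of 9, where 9.52% of genes tested were separated. Kcna5 was the 1 gene with an unadjusted p under 0.05 (limma unadjusted p = 0.0499, adjusted p = 0.1843). It was at 5.56 ± 1.07 FPKM in Plod1-/- and 4.13 ± 1.3 FPKM in WT mice (SD, n = 5). The 95% intervals reached at most 0.75 in size, for Kcna5, and 0.22 for Kcnmb1, whose means were 73.1 and 72.6 FPKM.

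Whether the Ang II response differed between genotypes was tested as the interaction over all 20 mice. Kcna5 differed most, with a log2 difference of -1.27 (SE 0.34, limma adjusted p = 0.007115), its change being 0.90 in WT and -0.37 in Plod1-/- mice. It was the 1 DEG of the 9 by this test, with a lower value, where 6.36% of 13263 genes were lower DEGs, and it kept an adjusted p below 0.05 in all 20 fits that left out 1 mouse. Abcc9 also differed, with -0.92 (SE 0.31, limma adjusted p = 0.02444) in the direction of a larger fall in Plod1-/- mice, and it too was kept in all 20 such fits. Without both libraries with Xist RNA its adjusted p was 0.05235, and with no filter on low values 0.06257. Kcnj8 lay at -0.67 (limma adjusted p = 0.05038), Kcnmb1 at -1.01 (95% interval -2.09 to 0.07, limma adjusted p = 0.1303) and Ryr2 at -0.48 (95% interval -0.94 to -0.02, limma adjusted p = 0.08863). Kcnmb1 passed without Ang II-treated Plod1-/- replicate 1 (-1.38, limma adjusted p = 0.01208). Kcnj8 passed in 7 of 20 fits that left out 1 mouse (adjusted p 0.02809 to 0.04964), those without saline-treated WT replicate 3, 4 or 5, Ang II-treated WT replicate 2, saline-treated Plod1-/- replicate 4 or Ang II-treated Plod1-/- replicate 1 or 2. Ryr2 passed without saline-treated WT replicate 3 or 4 (adjusted p 0.04321 to 0.04442). For Kcnma1, Cacna1c, Cacna1d and Cacnb2 the difference ran from -0.20 to 0.19 and did not pass. Lower interaction values passed for 2 of 9 members, Kcna5 and Abcc9, where 14.1% of genes tested did.

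Partner subunits were then set beside each other within each mouse. A fall shared by both cancels in the ratio of FPKM. It does not fully cancel on the tested log2(FPKM + 1) scale where a partner is near 1 FPKM. The FPKM ratio of Kcnmb1 to Kcnma1 in Plod1-/- mice was 40.5 ± 1.88 under saline and 27.3 ± 18.7 under Ang II (SD, n = 5), and 39.2 ± 5.25 and 41.0 ± 6.64 in the WT groups. Within Ang II-treated Plod1-/- mice it ran from 5.94 to 50.8, so β1 and pore RNA no longer kept a common ratio there. The ratio of Abcc9 to Kcnj8 was 0.964 ± 0.120 in saline-treated and 0.582 ± 0.149 in Ang II-treated Plod1-/- mice, with no overlap between 0.835 to 1.12 and 0.406 to 0.811. On the log2(FPKM + 1) scale this difference was -0.70 (two-sided exact permutation p = 0.00794, adjusted p = 0.10317 over 52 ratios and comparisons). In WT mice it was 1.05 ± 0.247 under saline and 0.776 ± 0.289 under Ang II. Cacnb2 to Cacna1c was 0.525 ± 0.0748 and 0.317 ± 0.112 in the Plod1-/- groups and 0.449 ± 0.0420 and 0.451 ± 0.0838 in the WT groups. On the log2(FPKM + 1) scale this WT ratio still differed by 0.20 (two-sided exact permutation p = 0.03175, adjusted p = 0.15873), which shows that limit. None of the 52 exact tests of ratios passed after adjustment, and 15 had an unadjusted p under 0.05. With 5 against 5 mice no exact p can be below 0.00794. A ratio could therefore not pass alone over 52 tests, even with full separation. Without Ang II-treated Plod1-/- replicate 1, 9 of the ratios between the Plod1-/- groups passed, and 5 between the Ang II-treated genotypes.

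Set against the mean of the 13 contractile markers on the same scale, Kcnmb1 differed by -0.25 between the Plod1-/- groups and -0.02 between the WT groups. Abcc9 differed by 0.20 between the Plod1-/- groups, Ryr2 by 0.57, Kcnj8 by 0.90, Cacnb2 by 0.94, Kcnma1 by 1.06, Cacna1c by 1.12, Kcna5 by 1.25 and Cacna1d by 1.36 (two-sided exact permutation, adjusted p 0.11791 to 0.78788 for these 9 ratios in Plod1-/- mice). The ratios of genes near 1 FPKM are compressed by the added 1, and several changed sign with a pseudocount of 0.1.

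**Figure D4:**
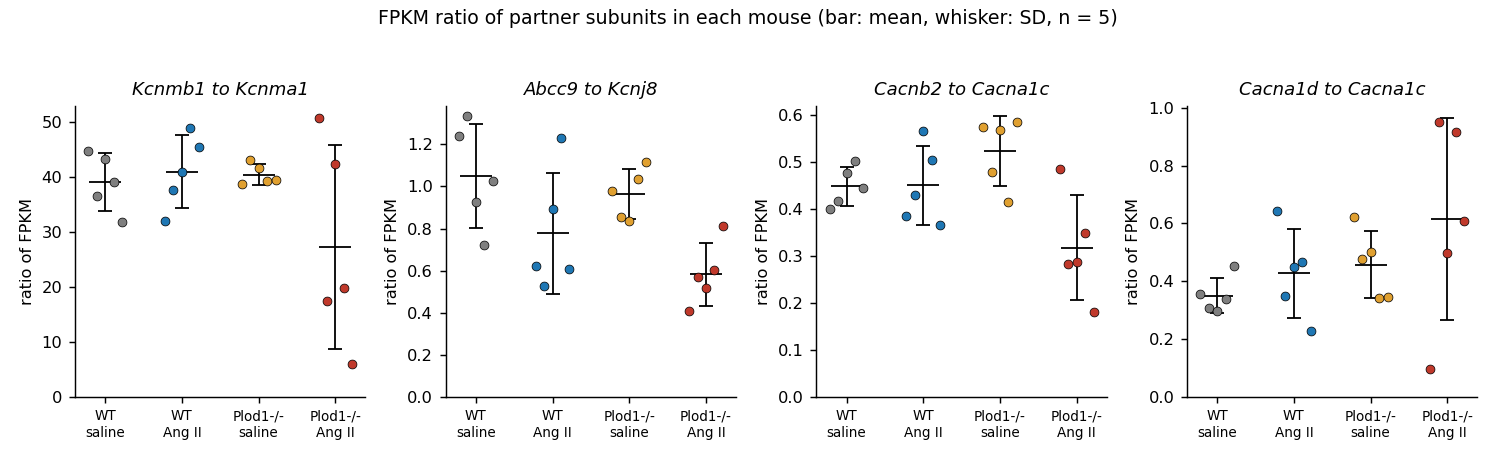
FPKM ratio (y axis) of partner subunits in each mouse, by group (x axis), with the mean and SD of 5 mice. The ratio of Kcnmb1 to Kcnma1 spreads from 5.94 to 50.8 in Ang II-treated Plod1-/- mice and has means of 39.2 to 41.0 in the other groups, and the ratio of Abcc9 to Kcnj8 is lowest in Ang II-treated Plod1-/- mice.

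Of 21 other potassium channel genes, 10 could be tested in Plod1-/- mice, and 2 rose and 4 fell under Ang II. Among the DEGs, Kcnab1, which encodes a β subunit that binds Kv1 channels, had a mean of 14.0 FPKM under saline and 2.53 FPKM under Ang II (log2 change -2.12, SE 0.18, limma adjusted p = 3.307e-05). Kcnab2 and the K2P channel gene Kcnk6 rose, with log2 changes of 2.02 (SE 0.36) and 1.59 (SE 0.30). Kcnd3 (-0.97) fell by less than a DEG needs, while Kcnk3 (0.78), Kcns3 (-0.68), Kcnn4 (0.48) and Kcne4 (0.24) did not pass. In WT mice 3 of 10 tested rose and 2 fell, and the 1 DEG was Kcnk3, which encodes TASK-1 and is also expressed in brown fat, with 1.89 ± 1.86 FPKM under saline and 30.9 ± 21.0 FPKM under Ang II (SD, n = 5, log2 change 3.31, SE 0.61, limma adjusted p = 0.003554). In the interaction 4 of 11 tested were higher and 6 lower, among them Kcnab1 (-1.30) and the KATP pore gene Kcnj11 (-1.01). Of all 13263 genes tested there, 5017 passed in either direction and 14.1% were lower. The median log2 change of the tested genes was -0.16 in Plod1-/- and -0.41 in WT mice.

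Of 14 other genes grouped as calcium entry genes, 10 were tested in Plod1-/- mice, and 6 fell and 1 rose under Ang II. The group also holds Ano1 and the monovalent cation channel gene Trpm4, which are not calcium channels and were among those that fell. The DEGs were Ano1 (-1.22, SE 0.34), a calcium-activated chloride channel, and Cacna2d1 (-1.11, SE 0.13), the α2δ1 subunit of L-type channels, which went from 7.12 to 2.80 FPKM. Cacna1h, a T-type channel pore, had 0.532 ± 0.102 FPKM in saline-treated WT and 1.89 ± 0.309 FPKM in saline-treated Plod1-/- mice (SD, n = 5). Its log2 difference between the saline-treated genotypes was 0.91 (SE 0.09, limma adjusted p = 0.00173), and it fell by 0.83 under Ang II in Plod1-/- mice. The store-operated channel gene Orai1 rose by 0.61. In WT mice 3 of 9 fell, 1 rose and 0 were DEGs, and Cacna2d1 again fell (-0.77, SE 0.20).

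Of 16 calcium store and extrusion genes, 11 were tested in Plod1-/- mice, where 6 fell and 2 rose. The DEGs beside Ryr2 were Atp2a3 (-1.53, SE 0.19), a sarcoplasmic reticulum calcium pump, Jph2 (-1.34, SE 0.33), which ties the reticulum to the cell membrane, the inositol trisphosphate receptor gene Itpr1 (-1.26, SE 0.11) and the plasma membrane pump gene Atp2b4 (-1.10, SE 0.18). Fkbp1b, whose protein binds and steadies the ryanodine receptor, rose by 1.22 (SE 0.22, limma adjusted p = 0.0015) from 3.59 to 10.2 FPKM. Atp2b1 rose by 0.65. In WT mice 3 of 10 fell, 1 rose and 0 were DEGs, the riser being Itpr2 (0.92, SE 0.18). The median log2 change was -0.74 in Plod1-/- and -0.23 in WT mice, beside 0.05 and -0.14 over all genes tested. Of all 12333 genes tested in Plod1-/- mice, 5408 passed in either direction and 20.1% fell. In WT mice 21.5% of genes tested fell and 16.5% rose. The genes of these 3 lists were chosen by function, with earlier results of these data known.

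The patterns of the 9 genes over the 20 mice were compared as Pearson correlations of log2(FPKM + 1), a description of mice that share groups, libraries and cell makeup. Cacna1c and Cacnb2 were most alike (r = 0.925, n = 20), followed by Kcnmb1 and Cacnb2 (0.918) and by Abcc9 and Ryr2 (0.870). Kcna5 stood apart, with r from -0.521 with Cacna1c to 0.196 with Kcnj8. Among 13262 other genes, those most like Kcnmb1 included Acta2 (r = 0.977) and Efhd1 (0.973), of which Acta2 encodes smooth muscle α-actin. Those most like Cacnb2 were Cald1 (0.973), Nexn (0.968) and Pls3 (0.965), and those most like Abcc9 were Fry (0.977), Gabra3 (0.971) and Nox4 (0.961). Ryr2 was most like Col4a3 (0.960), Bcl2 and Utrn, Cacna1c most like Slc12a4 (0.954), Arhgap6 and Pdlim5, and Kcnma1 most like B3galnt2 (0.945), Prrc2b and Kif13a. The highest values for the remaining genes were lower, 0.905 for Cacna1d with Stk24, 0.887 for Kcna5 with Timm44 and 0.884 for Kcnj8 with Zfyve21.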

How the data were processed

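Abdominal aortas of 20 mice were sequenced with a kit that does not mark strand. The authors removed ribosomal reads, used HISAT2 for alignment, assembled transcripts with stringtie, ran cuffquant and then cuffnorm with default options, and deposited FPKM per Ensembl gene, normalized between libraries. The submitters' processing notes list HISAT2 2.1.0, Bowtie2 2.2.3 and HTSeq 0.6.0, with build mm10. Symbols for 43226 of 43422 genes and coordinates came from GENCODE M21 (GRCm38). Counts were not used here, so depth is unknown and no interval or detection limit for single libraries is given, and edgeR, which the authors name, was replaced by limma.

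Groups and replicate numbers came from the labels. FPKM was transformed to log2(FPKM + 1), genes with at least 1 FPKM in at least 5 mice of a fit were kept, and each comparison was fitted on its own 10 mice (the interaction on 20) with limma 3.58.1 (eBayes with trend) in R 4.3.3, with two-sided tests and Benjamini-Hochberg adjustment over all genes tested. DEGs had an adjusted p below 0.05 and a log2 change over 1 in size. The methods were tested on simulated data. Two-sided exact permutation tests served for members below the filter and for ratios within a mouse. Nothing in the labels says that same-numbered mice are pairs, and p-values measure the spread between these mice.

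The members and gene lists were chosen with earlier results of these data known. All 9 members are named in every comparison, list genes where their list is counted (those called, then up to 4 others), and for each member the 3 genes with the highest Pearson correlation. Alternatives were a pseudocount of 0.1, no filter, replicate number as a block, quantile normalization, weights per mouse, all groups in one fit, the adjusted p alone, gene-wise variances, mitochondrial genes left out, both libraries with Xist RNA left out, and each mouse left out in turn. The adjusted p alone without Ang II-treated WT replicate 4 or without both libraries with Xist RNA was added after seeing the data. Promoters came from RefSeq (GRCm38.p6), and protein sequences were not used here. A few genes that these rules name are not reported here.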

Additional observations from a re-analysis of the deposited data

Results flagged for a closer look

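Among the 36 sets of 5 mice formed by 9 genes and 4 groups, a single mouse stood apart from its group in 3 by Dixon's test at the 95% level, where chance gives about 1 in 20. Kcna5 was at 4.12 FPKM in Ang II-treated WT replicate 4, with the nearest other mouse of the group at 9.45 FPKM. Cacna1c was at 3.46 FPKM in the same mouse, with the nearest other at 1.75 FPKM, and reached 3.02 FPKM in replicate 1 of the Ang II-treated Plod1-/- mice, with the nearest other at 1.87 FPKM. Both mice had the highest sums of contractile smooth muscle markers in their groups, 23219 and 21673 FPKM, and their part in these values was not tested.

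The response to Ang II differed between genotypes for Kcna5, with an interaction of -1.27 on the log2 scale (limma adjusted p = 0.007115, n = 20), and for Abcc9, with -0.92 (limma adjusted p = 0.02444, n = 20). In WT mice, 4 of 5 Ang II-treated mice lay above every saline-treated mouse for Kcna5, and in Plod1-/- mice 5 of 5 Ang II-treated mice lay below every saline-treated mouse for Abcc9. For Abcc9 the same held for 4 of 5 Ang II-treated WT mice, and without WT replicate 4 the WT fall also passed (log2 change -0.74, limma adjusted p = 0.004282).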

How the results depend on the processing

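The 3 DEGs among the channel genes in Plod1-/- mice under Ang II were 3 in each setting except a pseudocount of 0.1 (4, Cacnb2 joining with -1.325 on that scale), the adjusted p alone (7, or 5 without both libraries with Xist RNA), the Xist libraries left out (2) and 1 mouse left out (2 to 3), both where Ryr2 fell below the filter with fewer saline-treated mice. In WT mice the count of 0 became 1 with a pseudocount of 0.1, 2 with weights per mouse, 6 with the adjusted p alone, 7 with that rule and without Ang II-treated WT replicate 4, and 0 to 2 with 1 mouse left out. Between the Ang II-treated genotypes 0 became 1 with a pseudocount of 0.1, in one fit of all groups or without the Xist libraries, 2 with quantile normalization or weights, 3 with the adjusted p alone (2 without WT replicate 4, 4 without the Xist libraries), and 0 to 1 with 1 mouse left out. The interaction count of 1 became 2 with quantile normalization, weights, the adjusted p alone (also without WT replicate 4), mitochondrial genes left out or the Xist libraries left out, 3 with the adjusted p alone and without the Xist libraries, and 1 to 2 with 1 mouse left out. Between saline-treated genotypes it was 0 throughout. No ratio within a mouse could pass alone over the 52 tests. Those passing were 0 in all settings, and 0 to 9 (Plod1-/- groups) and 0 to 5 (Ang II-treated genotypes) with 1 mouse left out. Apart from the settings whose construction explains it, the cause was not tested. No called change reversed. Changes that had not passed turned sign in 7 member values and 12 ratios over the other settings and in 28 and 23 with 1 mouse left out, and none of these had an adjusted p below 0.4127. DEG counts over all genes moved by over 1.5 times with the adjusted p alone (5408, 4560, 3849, 786 and 5017 against 1714, 1039, 1373, 92 and 2129), with weights between the Ang II-treated genotypes (2134), and between saline-treated genotypes. With no filter, WT members with an adjusted p below 0.05 went from 6 to 1, Kcna5.

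Most same-numbered mice did not vary together (correlations of deviations -0.332 to 0.421, over 0.1 in 5 of 20 pairings, best with the own number in 3). Between the Plod1-/- groups, replicates 2 and 3 reached 0.421 and 0.372, each best with its own number. The check showed no general pairing by number but cannot exclude it. With the replicate block the DEG counts of the members were 3, 0, 0, 0 and 1 as before, and those with an adjusted p below 0.05 went from 7 to 7, 6 to 5, 3 to 1, 0 to 0 and 2 to 2. Cacnb2 was lost in WT mice, and Abcc9 (0.07452) and Kcnj8 (0.07701) between the Ang II-treated genotypes.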
